A study of Homo sapiens with 6 samples.

Results

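RNA levels were examined for 43 genes of the extracellular matrix, its proteases and the mesenchymal state, out of 18358 genes in the deposited table. The set holds 11 collagen genes, 6 other matrix glycoproteins, 3 genes typical of mesenchymal cells, 5 transcription factors of epithelial-mesenchymal transition (EMT), 8 matrix metalloproteinases (MMPs), 3 of their inhibitors, urokinase and its receptor, and 5 enzymes or chaperones of collagen. Members were taken by name from the gene table and all 43 were found. The cells were ME180, an established line from a metastasis of a human epidermoid carcinoma of the cervix. In 3 libraries the cells carried a single-guide construct against VPS13C, a lipid transfer protein of membrane contact sites, and in 3 they carried the vector. Both groups had received 2 µM cisplatin, a DNA-crosslinking platinum drug, for 48 h, so each difference is one between cisplatin-treated cells. The labels state neither whether the sgVPS13C cells were a pool or a clone nor whether replicates were separate cultures, so p-values measure a spread between libraries that may be technical.

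Collagens are triple-helical proteins that are hydroxylated and folded in the endoplasmic reticulum, secreted, trimmed and then crosslinked by lysyl oxidases. Fibrillar types form the fibrils of stroma, while type IV and anchoring types form and fasten the basement membrane on which squamous epithelia rest. MMPs and the plasmin made by urokinase cut this matrix, and TIMP proteins block MMPs. During EMT, carcinoma cells lose epithelial junctions and take on mesenchymal genes such as those for N-cadherin, vimentin and fibronectin.

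Counts summed over all genes lay between 14774065 and 15799149 per library. VPS13C itself had 28.6, 18.6 and 23.7 CPM (counts scaled to library size with TMM factors) in the sgVPS13C libraries, against 48.1, 30.1 and 35.0 CPM in the vector libraries. The groups did not overlap, yet the log2 fold change of −0.67 missed the threshold (edgeR quasi-likelihood adjusted p = 0.0513). Leaving out sgVPS13C replicate 1 gave −0.84 (edgeR quasi-likelihood adjusted p = 0.0482), and leaving out vector replicate 2 gave −0.81 (0.0378). VPS13C missed the threshold without sgVPS13C replicate 2 or 3 (edgeR quasi-likelihood adjusted p = 0.0957 and 0.144) and without vector replicate 1 or 3 (0.0906 and 0.101). Markers of squamous epithelium fitted the label: 9 of them summed to between 20230 and 24536 CPM in the sgVPS13C libraries and between 12505 and 15943 CPM in the vector libraries. Among them, KRT5, KRT6A, KRT14 and DSP were higher in the sgVPS13C libraries (edgeR quasi-likelihood adjusted p under 0.05). EPCAM was lower (log2 fold change −0.72, edgeR quasi-likelihood adjusted p = 0.00104), and KRT17, TP63, CDH1 and SFN overlapped between the groups. Of 7 fibroblast markers in the table, 5 stayed under 1 CPM in all libraries, COL3A1, LUM, PDGFRA, PDGFRB and THY1, and the 7 summed to 6.45 to 8.14 CPM in the sgVPS13C libraries and 1.33 to 2.03 CPM in the vector libraries. The other two, DCN and FAP, were higher in the sgVPS13C libraries: DCN averaged 3.78 CPM in sgVPS13C and 0.188 CPM in vector libraries, and FAP 2.98 CPM in sgVPS13C and 0.951 CPM in vector libraries. Endothelial markers summed to 21.7 to 24.8 CPM in the sgVPS13C libraries and 7.99 to 8.37 CPM in the vector libraries, most of it VWF, while CDH5 averaged 0.152 CPM in sgVPS13C and 2.27 CPM in vector libraries and PECAM1 and KDR stayed under 1 CPM. Leukocyte markers summed to 41.8 to 46.5 CPM in the sgVPS13C libraries and 72.0 to 86.1 CPM in the vector libraries, nearly all of it CD68, and PTPRC and CD3E had at most 1 count in any library. What part such markers have in the differences below was not tested.

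Of the 43 members, 32 passed the filter on low counts (74.4%, against 74.7% of all genes). At an adjusted p under 0.05, 18 of these 32 were called (edgeR quasi-likelihood test), 56.2% of them, beside 35.1% of all 13717 genes tested. They divided evenly: 9 were higher in the sgVPS13C libraries (28.1%, against 17.8% of all genes) and 9 lower (28.1%, against 17.4% of all genes). The median log2 fold change of the members was −0.01 and that of all genes 0.00. Of the 32 tested members, 21 (65.6%) had no overlap between the 2 sets of libraries, 10 higher and 11 lower; among all genes tested the share was 48.5%, with 24.5% higher and 24% lower. Of the 11 untested members, ZEB1 (higher) and LOXL2 (lower) did not overlap either. Called members with at least a 2-fold change numbered 13 (40.6%, against 12.2% of all genes), 6 of them higher (18.8%, against 6.73%) and 7 lower (21.9%, against 5.52%). In the sgVPS13C libraries CDH2 had 6, 6 and 11 counts and MMP1 had 9, 7 and 6. Both passed the filter only through the vector libraries, where they were higher. Both are among the members called lower, and CDH2 is among those at least 2-fold lower, so these shares rest partly on that choice of genes. The number of called genes in all was 3026 without sgVPS13C replicate 3 and 3103 without vector replicate 3, against 4821 with all libraries. The 11 members under the filter were SPARC, FBN1, VIM, ZEB1, ZEB2, MMP3, MMP7, MMP9, MMP10, MMP13 and LOXL2.

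**Figure D1:**
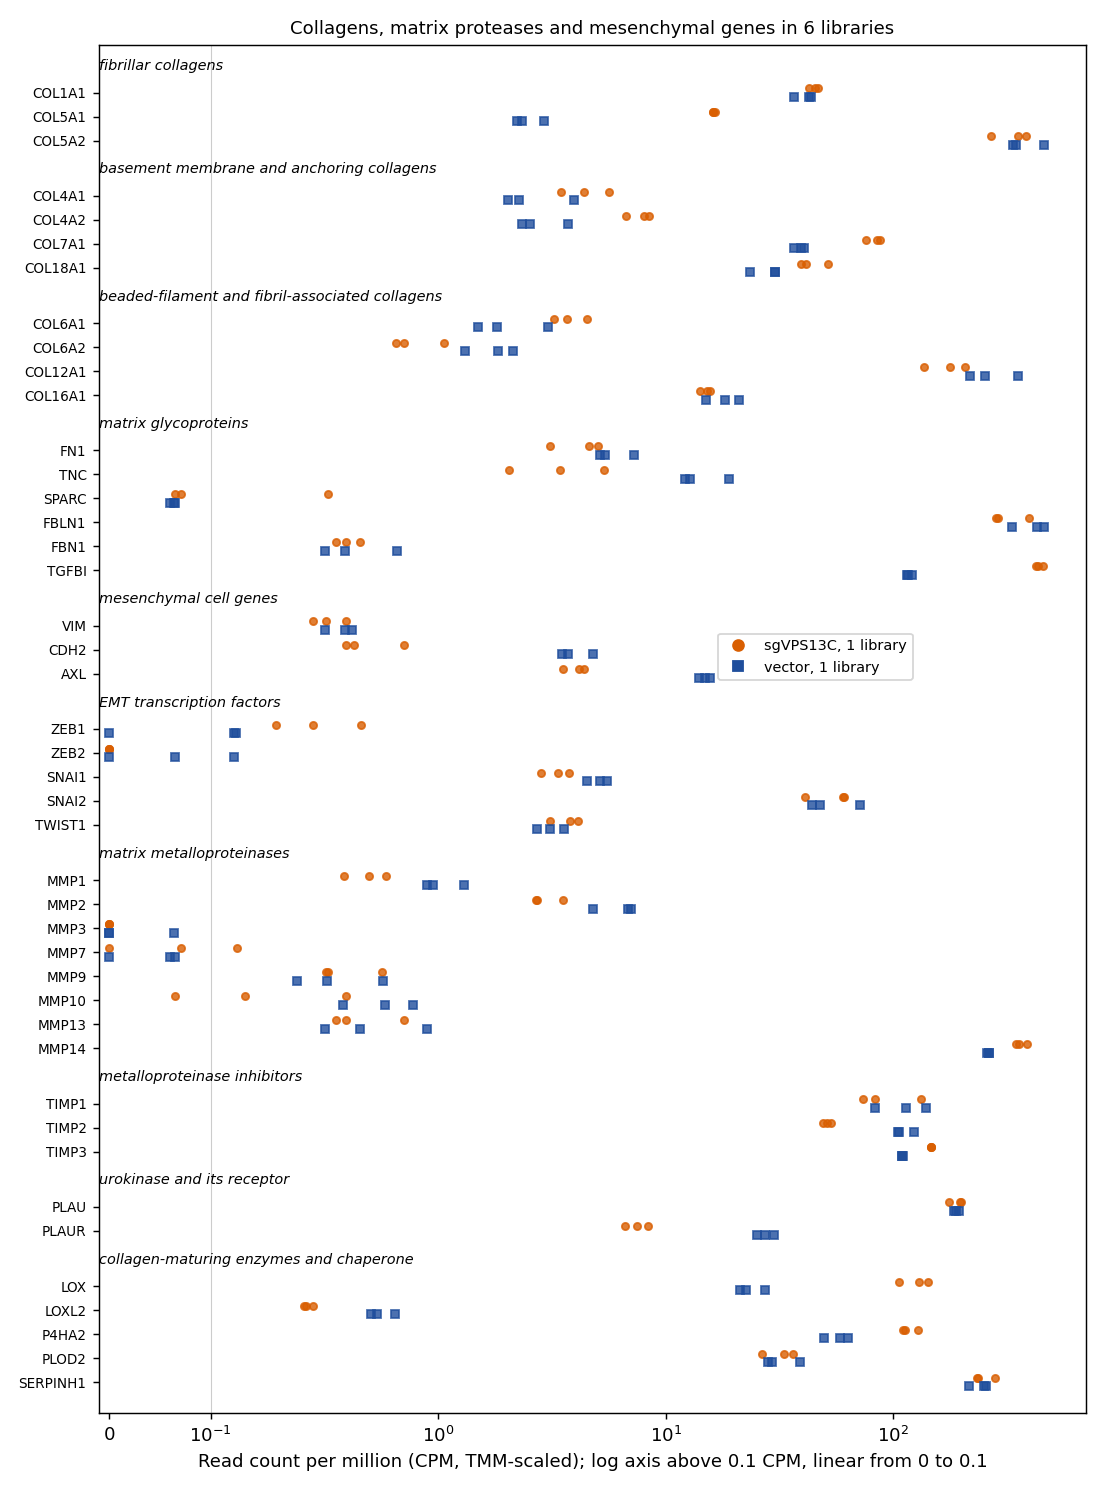
Scaled read counts (CPM) of the 43 members by role, 1 point per library, with sgVPS13C libraries as orange circles above the blue squares of vector libraries; the axis is logarithmic above 0.1 CPM and linear below. Levels run from 0 CPM for MMP3 and ZEB2 in the sgVPS13C libraries to 455 CPM for TGFBI in an sgVPS13C library and 459 CPM in vector libraries for COL5A2 and FBLN1.

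Fibrillar collagens came from 3 genes. The minor fibril collagen type V is built from chains of COL5A1 and COL5A2 and controls fibril diameter, and COL1A1 gives the main chain of type I collagen. COL5A1 (gene 1289, GRCh38 chromosome 9, 134641803 to 134844843) had 16.2, 16.2 and 16.4 CPM in the sgVPS13C libraries, against 2.33, 2.91 and 2.22 CPM in the vector libraries. Its groups lay far apart and each was narrow. COL5A1 averaged 16.2 ± 0.149 CPM in sgVPS13C and 2.49 ± 0.374 CPM in vector libraries (SD, n = 3 each), a 6.26-fold rise (log2 fold change 2.65, SE 0.14, edgeR quasi-likelihood adjusted p = 3.85e-05). In bulk RNA, a change in the number of cells that express a gene and a change in RNA per cell cannot be told apart. The partner of COL5A1, COL5A2 (chromosome 2, 189031898 to 189441111), was far more abundant and had 383, 269 and 352 CPM in the sgVPS13C libraries, against 459, 337 and 346 CPM in the vector libraries. These groups overlapped, and the log2 fold change of COL5A2 was −0.19 with an SE of 0.18 (edgeR quasi-likelihood adjusted p = 0.463). COL5A2 was called lower when each library's trend on gene length was removed (−0.26, edgeR quasi-likelihood adjusted p = 0.0318). Per length, COL5A2 had a mean of 54.5 FPKM and COL5A1 of 1.97 FPKM in the sgVPS13C libraries, and COL5A2 had 63.5 FPKM and COL5A1 0.307 FPKM in the vector libraries. COL1A1 overlapped between the groups as well, with 45.2, 46.7 and 42.8 CPM in the sgVPS13C libraries and 36.6, 42.7 and 43.7 CPM in the vector libraries (log2 fold change 0.13, SE 0.11). COL1A2, which encodes the other chain of type I collagen, was not found among the genes read here and so was not analysed.

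Of the 4 basement membrane and anchoring collagens, 3 were called higher and 0 lower, beside 17.8% and 17.4% of all genes. COL7A1, the collagen of the fibrils that anchor squamous epithelium (gene 1294, chromosome 3, 48564073 to 48595329), had 85.0, 87.7 and 75.9 CPM in the sgVPS13C libraries, against 36.6, 40.7 and 39.4 CPM in the vector libraries. It averaged 82.8 ± 6.19 CPM in sgVPS13C and 38.9 ± 2.14 CPM in vector libraries (SD, n = 3 each), with a log2 fold change of 1.09 (SE 0.10, edgeR quasi-likelihood adjusted p = 3.48e-04). Every sgVPS13C library stood above every vector library. COL18A1, whose cleavage releases endostatin, had 41.4, 51.5 and 39.5 CPM in the sgVPS13C libraries, against 23.5, 30.2 and 30.4 CPM in the vector libraries (log2 fold change 0.65, SE 0.15, edgeR quasi-likelihood adjusted p = 0.0164). Per length it was about level with COL7A1, at 8.42 FPKM against 9.13 FPKM for COL7A1 in the sgVPS13C libraries and 5.49 against 4.39 FPKM in the vector libraries.

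COL4A2, a chain of the type IV collagen network (gene 1284, chromosome 13, 110307284 to 110513209), had 8.47, 8.01 and 6.72 CPM in the sgVPS13C libraries, against 2.33, 2.53 and 3.74 CPM in the vector libraries. The means were 7.73 ± 0.907 CPM in sgVPS13C and 2.87 ± 0.765 CPM in vector libraries (SD, n = 3 each), a 2.63-fold rise (log2 fold change 1.39, SE 0.21, edgeR quasi-likelihood adjusted p = 0.00234). Its partner chain COL4A1 had 5.65, 3.47 and 4.39 CPM in the sgVPS13C libraries and 3.94, 2.27 and 2.03 CPM in the vector libraries. The groups overlapped through vector replicate 1, and the log2 fold change of COL4A1 was 0.69 with an SE of 0.29 (edgeR quasi-likelihood adjusted p = 0.113). COL4A1 was called once vector replicate 1 was left out (1.02, edgeR quasi-likelihood adjusted p = 0.0176). The pair is transcribed in opposite directions from a shared stretch of 126 bases, which is shown because the starts of both genes flank it. In RefSeq for GRCh38.p14 it lies at chr13:110307158-110307283, given on the plus strand, the direction of COL4A2, and capitals mark a CCAAT box and a GC box (GGGCGG), both searched on both strands.
COL4A1-COL4A2: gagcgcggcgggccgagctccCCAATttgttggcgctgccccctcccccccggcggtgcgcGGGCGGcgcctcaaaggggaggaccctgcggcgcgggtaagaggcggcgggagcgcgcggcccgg
The CCAAT box begins 105 bases and the GC box 65 bases before the COL4A2 start. Of 35116 windows of the same length before annotated starts, 21.1% hold CCAAT and 34.6% hold GGGCGG.

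Beaded-filament and fibril-associated collagens did not share a direction. Of these, 1 of 4 members was called, a share of 25% beside 35.1% of all genes, and it was lower. COL12A1, which coats fibrils and was the most abundant of the role, had 206, 136 and 178 CPM in the sgVPS13C libraries, against 354, 218 and 253 CPM in the vector libraries. The groups did not overlap, but the spread within each was wide and the log2 fold change of −0.67 (SE 0.22) missed the threshold (edgeR quasi-likelihood adjusted p = 0.0520). COL12A1 was called when vector replicate 2 was left out (−0.81, edgeR quasi-likelihood adjusted p = 0.0365), and when each library's trend on gene length was removed (−0.76, 5.65e-04). COL6A1 and COL6A2 encode chains of type VI collagen and lie close together on chromosome 21. COL6A1 had 3.68, 4.53 and 3.23 CPM in the sgVPS13C libraries and 1.49, 1.81 and 3.04 CPM in the vector libraries (log2 fold change 0.81, SE 0.28, edgeR quasi-likelihood adjusted p = 0.0598). COL6A2 had only 10, 15 and 11 counts in the sgVPS13C libraries and 22, 33 and 29 counts in the vector libraries, and was called lower (log2 fold change −1.01, SE 0.27, edgeR quasi-likelihood adjusted p = 0.0252). In neither gene did the groups overlap. Leaving out vector replicate 3 brought COL6A1 past it (1.14, edgeR quasi-likelihood adjusted p = 0.0213). The call of COL6A2 was lost without sgVPS13C replicate 1 or 3 (edgeR quasi-likelihood adjusted p = 0.0799 and 0.0922) and without vector replicate 2 or 3 (0.0804 and 0.0846). COL16A1 had 15.2, 15.6 and 14.2 CPM in the sgVPS13C libraries and 15.1, 20.9 and 18.3 CPM in the vector libraries. It was not called with all libraries (log2 fold change −0.27, SE 0.14) and was called with vector replicate 1 left out (−0.39, edgeR quasi-likelihood adjusted p = 0.0465).

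Among the matrix glycoproteins, TGFBI and TNC moved apart. TGFBI encodes an adhesion protein that binds collagens and integrins and is named for its induction by TGF-beta (gene 7045, chromosome 5, 136028988 to 136063818). It had 434, 424 and 455 CPM in the sgVPS13C libraries, against 116, 121 and 115 CPM in the vector libraries. The gap between the groups was many times the spread within either. TGFBI averaged 437 ± 15.7 CPM in sgVPS13C and 117 ± 3.01 CPM in vector libraries (SD, n = 3 each), a 3.73-fold rise (log2 fold change 1.90, SE 0.09, edgeR quasi-likelihood adjusted p = 3.00e-05). TNC, tenascin-C, a large glycoprotein of wound and tumour stroma (gene 3371, chromosome 9, 115019575 to 115118157), had 5.38, 2.05 and 3.42 CPM in the sgVPS13C libraries, against 19.1, 12.1 and 12.8 CPM in the vector libraries. All sgVPS13C libraries lay below all vector libraries. The means of TNC were 3.62 ± 1.67 CPM in sgVPS13C and 14.7 ± 3.83 CPM in vector libraries (SD, n = 3 each), 3.93-fold lower (log2 fold change −1.97, SE 0.33, edgeR quasi-likelihood adjusted p = 0.00406).

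FBLN1, fibulin, which binds fibronectin and basement membrane proteins, was the most abundant glycoprotein of the set per length when all libraries were averaged. It had 284, 395 and 290.3 CPM in the sgVPS13C libraries and 331, 459 and 429 CPM in the vector libraries. The groups overlapped (log2 fold change −0.33, SE 0.18, edgeR quasi-likelihood adjusted p = 0.197), and FBLN1 was called without sgVPS13C replicate 2 (−0.50, edgeR quasi-likelihood adjusted p = 0.0443). Per length, TGFBI had a mean of 176 FPKM and FBLN1 of 153 FPKM in the sgVPS13C libraries, and TGFBI 48.3 FPKM and FBLN1 198 FPKM in the vector libraries. In sgVPS13C replicate 2, FBLN1 (178 FPKM) stood above TGFBI (161 FPKM), as in all vector libraries. FN1, fibronectin, a common marker of mesenchymal change, was low, with 5.06, 3.12 and 4.59 CPM in the sgVPS13C libraries and 7.23, 5.44 and 5.14 CPM in the vector libraries. Its groups did not overlap, and its log2 fold change of −0.47 (SE 0.22) missed the threshold (edgeR quasi-likelihood adjusted p = 0.146). SPARC had 1 to 5 counts per sgVPS13C library and 1 count in each vector library. FBN1, fibrillin, had 5 to 7 counts per sgVPS13C library and 5 to 11 counts per vector library, below the filter.

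**Figure D2:**
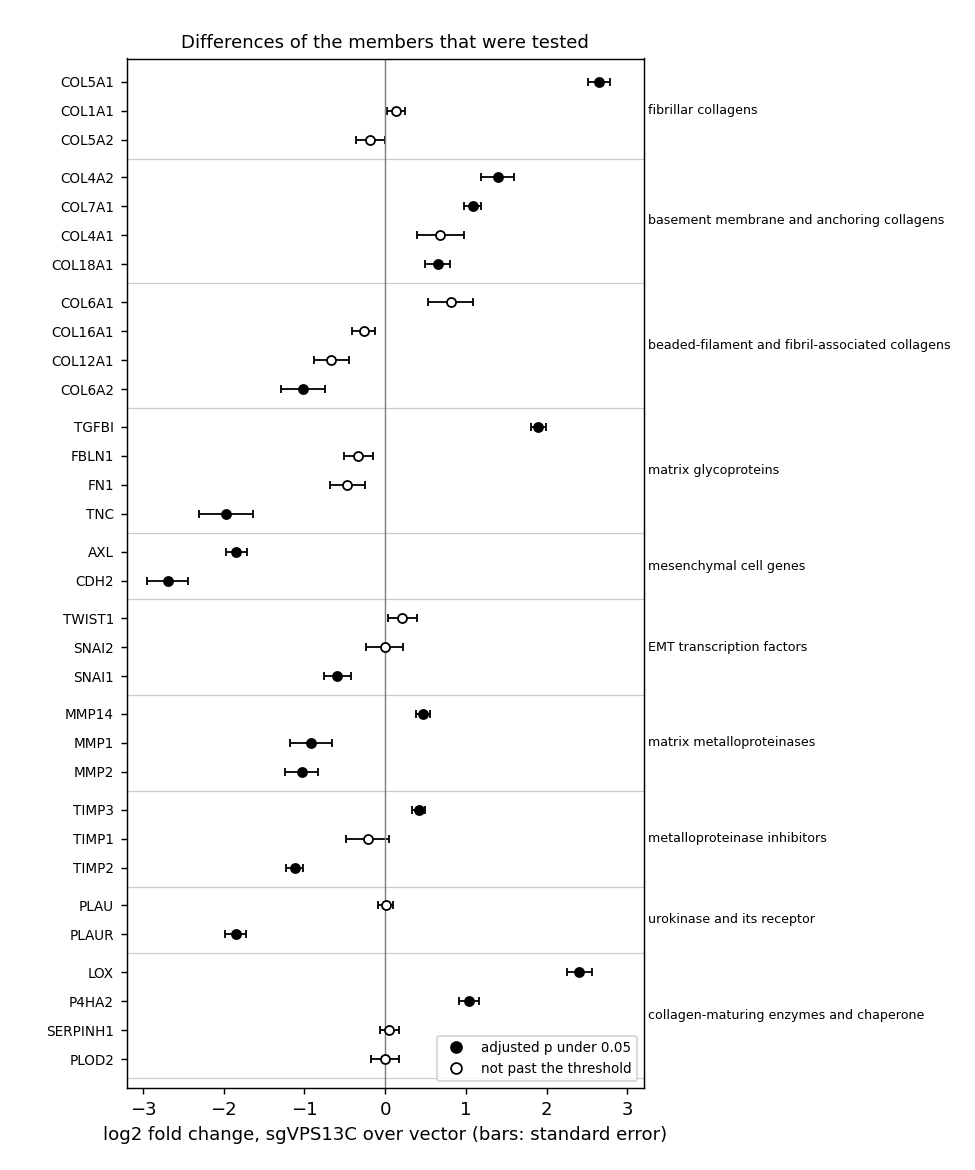
Log2 fold change of sgVPS13C over vector libraries for the 32 members that passed the low-count filter, grouped by role, with standard errors; filled circles passed an adjusted p of 0.05. COL5A1 lies farthest to the right at 2.65 and CDH2 farthest to the left at −2.69.

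Of the 3 members typical of mesenchymal cells, CDH2 and AXL were lower and VIM was barely present. CDH2 encodes N-cadherin, the adhesion molecule that replaces E-cadherin in EMT (gene 1000, chromosome 18, 27932879 to 28177130). It had 6, 6 and 11 counts in the sgVPS13C libraries, against 80, 54 and 59 counts in the vector libraries. The groups lay well apart. CDH2 averaged 0.510 ± 0.175 CPM in sgVPS13C and 4.01 ± 0.681 CPM in vector libraries (SD, n = 3 each), and the fit, which adds a prior count, put it 6.45-fold lower (log2 fold change −2.69, SE 0.25, edgeR quasi-likelihood adjusted p = 3.50e-04). AXL, a receptor tyrosine kinase for GAS6 associated with mesenchymal states and drug tolerance (gene 558, chromosome 19, 41219223 to 41261766), had 3.55, 4.18 and 4.39 CPM in the sgVPS13C libraries, against 15.7, 14.8 and 14.0 CPM in the vector libraries. Both groups were tight. AXL averaged 4.04 ± 0.441 CPM in sgVPS13C and 14.8 ± 0.882 CPM in vector libraries (SD, n = 3 each), 3.59-fold lower (log2 fold change −1.84, SE 0.13, edgeR quasi-likelihood adjusted p = 1.18e-04). VIM, vimentin, the intermediate filament of mesenchymal cells, had only 4 to 6 counts per sgVPS13C library and 5 to 7 counts per vector library, below the filter.

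The EMT transcription factors repress epithelial genes by binding E-boxes. SNAI2 was the only one of the 5 above 10 CPM, with 60.7, 41.1 and 60.2 CPM in the sgVPS13C libraries and 71.3, 44.0 and 47.6 CPM in the vector libraries. The groups overlapped (log2 fold change −0.01, SE 0.23, edgeR quasi-likelihood adjusted p = 0.987). SNAI1 had 3.35, 2.83 and 3.75 CPM in the sgVPS13C libraries and 5.50, 4.53 and 5.14 CPM in the vector libraries, without overlap, and was called lower (log2 fold change −0.59, SE 0.16, edgeR quasi-likelihood adjusted p = 0.0271). That call was lost without sgVPS13C replicate 1 or 2 (edgeR quasi-likelihood adjusted p = 0.0723 and 0.0642) and without vector replicate 1 or 3 (0.0584 and 0.0897). SNAI1 was not called either when each library's trend on gene length was removed (edgeR quasi-likelihood adjusted p = 0.0535). TWIST1 had 3.81, 4.11 and 3.10 CPM in the sgVPS13C libraries and 3.59, 3.11 and 2.73 CPM in the vector libraries, which overlapped (log2 fold change 0.21, SE 0.18). ZEB1 had 7, 4 and 3 counts in the sgVPS13C libraries and 0, 2 and 2 counts in the vector libraries. ZEB2 had 0 counts in all sgVPS13C libraries, which allows up to 3 counts over the group or 0.0669 CPM, and 0, 1 and 2 counts in the vector libraries.

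Of the 8 MMPs, MMP14 alone was abundant. MMP14 is anchored in the cell membrane, cuts fibrillar collagen and activates the MMP2 zymogen (gene 4323, chromosome 14, 22836585 to 22847758). It had 387, 348 and 356 CPM in the sgVPS13C libraries, against 259, 265 and 264 CPM in the vector libraries. No library of one group reached the other. MMP14 averaged 364 ± 20.8 CPM in sgVPS13C and 263 ± 3.52 CPM in vector libraries (SD, n = 3 each), with a log2 fold change of 0.47 (SE 0.09, edgeR quasi-likelihood adjusted p = 0.00694). MMP2, a secreted gelatinase, went the other way with 2.69, 3.54 and 2.71 CPM in the sgVPS13C libraries, against 4.78, 7.06 and 6.85 CPM in the vector libraries. It averaged 2.98 ± 0.485 CPM in sgVPS13C and 6.23 ± 1.26 CPM in vector libraries (SD, n = 3 each; log2 fold change −1.03, SE 0.21, edgeR quasi-likelihood adjusted p = 0.00820). Per length, MMP14 stood at 105 FPKM in the sgVPS13C libraries and 77.2 FPKM in the vector libraries, and MMP2 stood at 0.953 FPKM in the sgVPS13C libraries and 2.02 FPKM in the vector libraries.

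MMP1, the interstitial collagenase, had 9, 7 and 6 counts in the sgVPS13C libraries and 15, 20 and 15 counts in the vector libraries. It was called lower (log2 fold change −0.92, SE 0.26, edgeR quasi-likelihood adjusted p = 0.0295), and the call did not survive the removal of any 1 library other than vector replicate 1. Without sgVPS13C replicates 1, 2 and 3 in turn, the edgeR quasi-likelihood adjusted p of MMP1 was 0.0511, 0.0624 and 0.105, and without vector replicates 2 and 3 it was 0.103 and 0.0723. The call was lost with DESeq2 too (adjusted p = 0.0808). MMP10, a stromelysin, had 6, 2 and 1 counts in the sgVPS13C libraries and 13, 9 and 6 counts in the vector libraries, below the filter. MMP13 had 5 to 11 counts per sgVPS13C library and 5 to 15 per vector library, and the gelatinase MMP9 had 5 to 8 counts per sgVPS13C library and 4 to 9 per vector library. MMP7, matrilysin, had at most 2 counts in any library, and MMP3 had 1 count in all, in a vector library. MMP7, MMP10, MMP1, MMP3 and MMP13 lie in the MMP gene cluster of chromosome 11, from 102520508 to 102955732, in which no member exceeded 1.30 CPM in any library.

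TIMP genes took separate courses. TIMP2, which inhibits MMPs and also joins MMP14 and the MMP2 zymogen in their activating complex (gene 7077, chromosome 17, 78852977 to 78925387), had 51.2, 49.4 and 53.2 CPM in the sgVPS13C libraries, against 124, 105 and 106 CPM in the vector libraries. The groups were separated by a wide gap. TIMP2 averaged 51.3 ± 1.90 CPM in sgVPS13C and 111 ± 10.6 CPM in vector libraries (SD, n = 3 each), 2.17-fold lower (log2 fold change −1.12, SE 0.11, edgeR quasi-likelihood adjusted p = 3.18e-04). TIMP3, an inhibitor that stays bound to the matrix, had 147, 146 and 146 CPM in the sgVPS13C libraries, against 109.7, 110.3 and 109 CPM in the vector libraries. Its difference was small but so was its spread (log2 fold change 0.42, SE 0.08, edgeR quasi-likelihood adjusted p = 0.00645). TIMP1, a secreted inhibitor, had 73.3, 132 and 83.4 CPM in the sgVPS13C libraries and 82.8, 139 and 114 CPM in the vector libraries. Its groups overlapped (log2 fold change −0.22, SE 0.27, edgeR quasi-likelihood adjusted p = 0.568). Per length, TIMP1 had a mean of 174 FPKM in the sgVPS13C libraries and 209 FPKM in the vector libraries.

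Urokinase and its receptor differed from each other. PLAU, the secreted urokinase that makes plasmin (gene 5328, chromosome 10, 73908832 to 73917494), had 177, 196 and 198 CPM in the sgVPS13C libraries and 185, 194 and 189.6 CPM in the vector libraries. Vector libraries lay within the range of sgVPS13C libraries, and the log2 fold change was 0.01 with an SE of 0.09 (edgeR quasi-likelihood adjusted p = 0.972). PLAUR, the receptor that holds urokinase at the cell surface (gene 5329, chromosome 19, 43646095 to 43670169), had 6.63, 7.51 and 8.40 CPM in the sgVPS13C libraries, against 25.2, 30.0 and 27.3 CPM in the vector libraries. All vector libraries exceeded all sgVPS13C libraries. PLAUR averaged 7.51 ± 0.884 CPM in sgVPS13C and 27.5 ± 2.39 CPM in vector libraries (SD, n = 3 each), 3.61-fold lower (log2 fold change −1.85, SE 0.13, edgeR quasi-likelihood adjusted p = 1.20e-04).

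Enzymes that finish collagen gave the largest rise after COL5A1. LOX, lysyl oxidase, oxidises lysines so that collagen and elastin can crosslink (gene 4015, chromosome 5, 122063195 to 122078259). It had 130.4, 106 and 142 CPM in the sgVPS13C libraries, against 27.3, 22.6 and 21.3 CPM in the vector libraries. The lowest sgVPS13C library was several times the highest vector library. LOX averaged 126 ± 18.1 CPM in sgVPS13C and 23.7 ± 3.16 CPM in vector libraries (SD, n = 3 each), a 5.29-fold rise (log2 fold change 2.40, SE 0.16, edgeR quasi-likelihood adjusted p = 9.29e-05). P4HA2, the catalytic subunit of a prolyl hydroxylase that stabilises the triple helix (gene 8974, chromosome 5, 132190147 to 132227853), had 109.9, 129 and 113 CPM in the sgVPS13C libraries, against 49.6, 63.2 and 58.2 CPM in the vector libraries. It averaged 117 ± 10.3 CPM in sgVPS13C and 57.0 ± 6.89 CPM in vector libraries (SD, n = 3 each; log2 fold change 1.04, SE 0.13, edgeR quasi-likelihood adjusted p = 9.81e-04). Neither gene's groups overlapped.

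SERPINH1, the collagen chaperone HSP47, was the most abundant of this role at 136 FPKM in the sgVPS13C libraries and 135 FPKM in the vector libraries. SERPINH1 had 234, 280.2 and 235 CPM in the sgVPS13C libraries and 216, 257 and 251 CPM in the vector libraries, which overlapped (log2 fold change 0.05, SE 0.12, edgeR quasi-likelihood adjusted p = 0.781). PLOD2, a lysyl hydroxylase that sets the type of crosslink, had 36.2, 26.5 and 33.1 CPM in the sgVPS13C libraries and 38.8, 29.4 and 28.1 CPM in the vector libraries, also overlapping (log2 fold change −0.01, SE 0.17). LOXL2, a relative of LOX, had 4 counts in each sgVPS13C library and 9, 10 and 8 counts in the vector libraries. These did not overlap, but LOXL2 was below the filter.

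**Figure D3:**
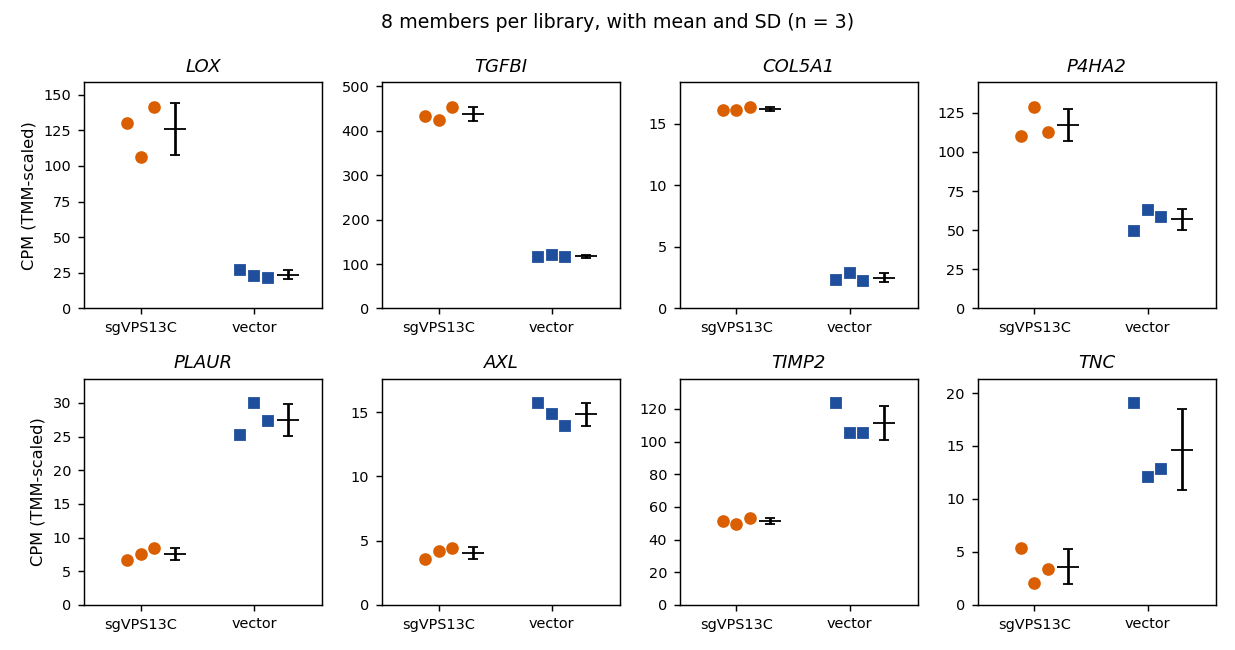
Scaled read counts (CPM) of LOX, TGFBI, COL5A1, P4HA2, PLAUR, AXL, TIMP2 and TNC in single libraries, sgVPS13C at the left of vector in each panel, with the mean and SD (n = 3) beside the points on axes that start at 0. The first 4 are higher and the last 4 lower in the sgVPS13C libraries, and no panel shows overlap between the groups.

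Reads were also assigned by the authors to transcripts, which shows what RNA a gene value rests on. Of the 43 members, 20 had at least 50 counts in every library, of which 5 had 1 listed transcript and 15 had more. The share of the leading transcript overlapped between the groups in 13 of these 15. The 2 without overlap, LOX and PLAUR, are close to the background, since 13.5% of 9355 genes that met the same conditions had no overlap, and their shares are given as a description. For LOX the main transcript NM_002317.7 took 80.6%, 81.1% and 83.7% of the gene's counts in the sgVPS13C libraries, against 77.5%, 72.5% and 72.7% in the vector libraries. For PLAUR the transcript NM_002659.4, which led when all libraries were averaged, took 37.2%, 48.7% and 31.8% in the sgVPS13C libraries, against 63.5%, 76.3% and 83.0% in the vector libraries. A predicted PLAUR transcript, XM_017026872.2, took 51.1%, 17.5% and 39.9% in the sgVPS13C libraries, against 7.78%, 6.95% and 5.46% in the vector libraries. It led in sgVPS13C replicates 1 and 3. In the sgVPS13C libraries NM_002659.4 had only 38, 52 and 41 counts and XM_017026872.2 had 52, 19 and 52 counts. These shares are estimates from 50-base single-end reads, which can fit several transcripts of a gene, and no test was made on them.

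Promoter sequence is shown for LOX, TGFBI and COL5A1, called higher, and for PLAUR and AXL, called lower, because these 5 had the largest folds among called members of at least 5 CPM apart from TNC. The bases are the 250 upstream of the start in RefSeq for GRCh38.p14, given 5′ to 3′ on the gene's strand, from the farthest upstream start where a gene has several. Capitals mark matches on either strand to AP-1 (TGANTCA), an E-box bound by EMT factors (CACCTG) or the core of a hypoxia response element (ACGTG or GCGTG). The windows are chr5:122078260-122078509 (minus strand) for LOX, chr5:136028738-136028987 (plus strand) for TGFBI, chr9:134641553-134641802 (plus strand) for COL5A1, chr19:43670170-43670419 (minus strand) for PLAUR and chr19:41218973-41219222 (plus strand) for AXL.
LOX: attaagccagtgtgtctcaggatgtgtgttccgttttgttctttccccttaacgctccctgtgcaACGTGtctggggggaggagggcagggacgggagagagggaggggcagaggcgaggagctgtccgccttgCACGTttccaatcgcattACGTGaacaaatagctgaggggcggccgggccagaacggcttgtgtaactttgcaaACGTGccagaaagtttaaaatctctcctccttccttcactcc
TGFBI: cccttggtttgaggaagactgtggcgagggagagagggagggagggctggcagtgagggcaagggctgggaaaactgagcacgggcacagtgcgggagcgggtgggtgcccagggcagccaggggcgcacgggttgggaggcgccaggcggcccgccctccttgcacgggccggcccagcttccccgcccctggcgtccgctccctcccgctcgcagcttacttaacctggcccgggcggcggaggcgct
COL5A1: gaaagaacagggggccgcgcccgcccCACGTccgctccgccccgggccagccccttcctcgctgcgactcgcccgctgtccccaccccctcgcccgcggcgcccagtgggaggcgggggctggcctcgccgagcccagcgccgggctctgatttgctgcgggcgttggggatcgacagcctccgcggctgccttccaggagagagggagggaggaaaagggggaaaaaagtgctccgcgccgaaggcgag
PLAUR: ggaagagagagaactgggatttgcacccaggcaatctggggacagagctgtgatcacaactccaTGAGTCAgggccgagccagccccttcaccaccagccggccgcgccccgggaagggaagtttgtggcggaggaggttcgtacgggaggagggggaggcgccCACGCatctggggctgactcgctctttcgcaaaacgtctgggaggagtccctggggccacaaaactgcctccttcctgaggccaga
AXL: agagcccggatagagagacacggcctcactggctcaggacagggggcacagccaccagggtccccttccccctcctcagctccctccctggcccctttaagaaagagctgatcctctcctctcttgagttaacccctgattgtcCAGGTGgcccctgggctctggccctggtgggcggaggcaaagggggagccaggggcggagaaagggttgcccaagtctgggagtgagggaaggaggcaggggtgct
The LOX window holds 4 hypoxia cores, which begin 185, 116, 98 and 42 bases upstream of the start, and the TGFBI window holds none of the motifs searched. COL5A1 has 1 hypoxia core, 224 bases upstream. PLAUR has an AP-1 match 186 bases and a hypoxia core 86 bases upstream, and AXL has an E-box 106 bases upstream. Windows of other annotated starts, not printed here, hold a hypoxia core for AXL and an E-box for LOX. Of all 35116 windows of 250 bases, 6.57% hold the AP-1 motif, 17.5% the E-box and 43.2% at least 1 hypoxia core. How many windows hold 4 cores, as that of LOX does, was not counted. Of the 44 windows of 30 members, 4 (9.09%) hold AP-1, those of CDH2, MMP7, MMP10 and PLAUR, 8 (18.2%) the E-box and 23 (52.3%) a hypoxia core. A match describes letters and not a bound site.

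Genes of the same systems outside the 43 were counted from lists made from textbook knowledge, with earlier results of these data known. Of 21 other mesenchymal genes, 15 were tested, and these leaned one way: 1 was called higher and 10 lower (66.7%, against 17.4% of all genes), with a median log2 fold change of −0.62. The higher one was FAP (log2 fold change 1.52), given above among the fibroblast markers. CDH11, called lower, averaged 0.175 CPM in sgVPS13C and 1.55 CPM in vector libraries and passed the filter only through the latter. Of the untested genes, S100A4 (0.986 CPM in sgVPS13C and 0.295 CPM in vector libraries) and PDGFRA (0.330 and 0.104 CPM) were higher without overlap. CNN1 (0.158 and 0.774 CPM) was lower without overlap, and PRRX1, PDGFRB and THY1 overlapped. TPM2 and TPM1, tropomyosins of the actin cytoskeleton, were lower with log2 fold changes of −1.79 and −0.62. MYL9, a myosin light chain, averaged 9.56 ± 2.42 CPM in sgVPS13C and 38.8 ± 9.71 CPM in vector libraries, and NT5E, an ectonucleotidase of mesenchymal cells, 68.9 ± 10.3 CPM in sgVPS13C and 175.9 ± 25.5 CPM in vector libraries (SD, n = 3 each). Of 10 other collagens tested, 4 were higher (40%, against 17.8% of all genes) and 3 lower (30%, against 17.4%), with a median of −0.05. COL9A3, a chain of a fibril-associated collagen, averaged 5.07 ± 0.966 CPM in sgVPS13C and 1.05 ± 0.155 CPM in vector libraries. COL5A3, the remaining type V chain, averaged 13.5 ± 0.570 CPM in sgVPS13C and 6.13 ± 0.361 CPM in vector libraries, while COL4A5, another type IV chain, had a log2 fold change of 0.54 (SD, n = 3 each). The 3 lower ones averaged under 5 CPM in both groups. They were the type IV chains COL4A4 (−1.75) and COL4A6 (−0.70), and COL8A2 (−1.09). COL17A1, the transmembrane collagen of hemidesmosomes, was called higher at 0.46. Its call was lost without sgVPS13C replicate 1 or 3 (edgeR quasi-likelihood adjusted p = 0.130 and 0.153) and without vector replicate 2 or 3 (0.132 and 0.151). COL17A1 was not called either with scaling to library size only (edgeR quasi-likelihood adjusted p = 0.0893). On log2(FPKM + 1) and log2(FPKM + 0.1) values it missed as well (limma adjusted p = 0.0871 and 0.0851).

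Other collagen-processing genes had 4 called higher (20%, near the 17.8% of all genes) and 6 lower (30%, against 17.4%) of 20 tested, with a median of −0.30. P3H2, a prolyl 3-hydroxylase, averaged 98.98 ± 11.0 CPM in sgVPS13C and 311 ± 21.4 CPM in vector libraries (SD, n = 3 each; log2 fold change −1.65). Its relative P3H3, the collagen foldase FKBP10 and the lysyl oxidase relative LOXL3 were lower as well, at −2.27, −1.86 and −1.35. Of 30 other glycoproteins and proteoglycans, 8 were higher and 8 lower (26.7% each, against 17.8% and 17.4% of all genes), with a median of 0.02. NID1, nidogen, which links laminin to type IV collagen, averaged 265.6 ± 42.6 CPM in sgVPS13C and 59.8 ± 10.3 CPM in vector libraries, and MATN2, a matrilin, had a log2 fold change of 0.93. CCN1 and CCN2, matricellular proteins, were lower: CCN1 averaged 64.8 ± 10.9 CPM in sgVPS13C and 243 ± 28.6 CPM in vector libraries, and CCN2 had a log2 fold change of −2.01 (SD, n = 3 each).

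Of 10 other MMPs and inhibitors tested, 1 was called higher (10%, against 17.8% of all genes) and 4 lower (40%, against 17.4%), although the median log2 fold change was 0.28. RECK, a membrane inhibitor of MMPs, was higher at 0.64, and MMP15, a membrane-type MMP, lower at −1.09. On log2(FPKM + 1) values RECK was not called (limma adjusted p = 0.138). Of 13 ADAM and ADAMTS proteases, 3 were higher and 2 lower (median 0.04), and their share of calls, 38.5%, was near the 35.1% of all genes. ADAMTS17, ADAMTS7 and ADAMTS15 were higher at 1.17, 1.43 and 1.27, and ADAMTS1, which cuts proteoglycans, lower at −2.29. Other plasminogen system genes and matrix cathepsins had 3 higher and 3 lower of 10 tested (30% each, against 17.8% and 17.4% of all genes; median 0.11). PLAT, the tissue-type plasminogen activator, averaged 5.15 ± 0.998 CPM in sgVPS13C and 21.2 ± 0.206 CPM in vector libraries (SD, n = 3 each; log2 fold change −2.02). SERPINE2, an inhibitor of urokinase and thrombin, was higher at 0.74, as was the cathepsin CTSL at 0.54. The related CTSV was called higher at 0.34, but not without sgVPS13C replicate 1 or 3 (edgeR quasi-likelihood adjusted p = 0.0526 and 0.102) or without vector replicate 2 or 3 (0.0824 and 0.0621). All named genes of these lists that were tested passed an edgeR quasi-likelihood adjusted p of 0.05 with all libraries.

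**Figure D4:**
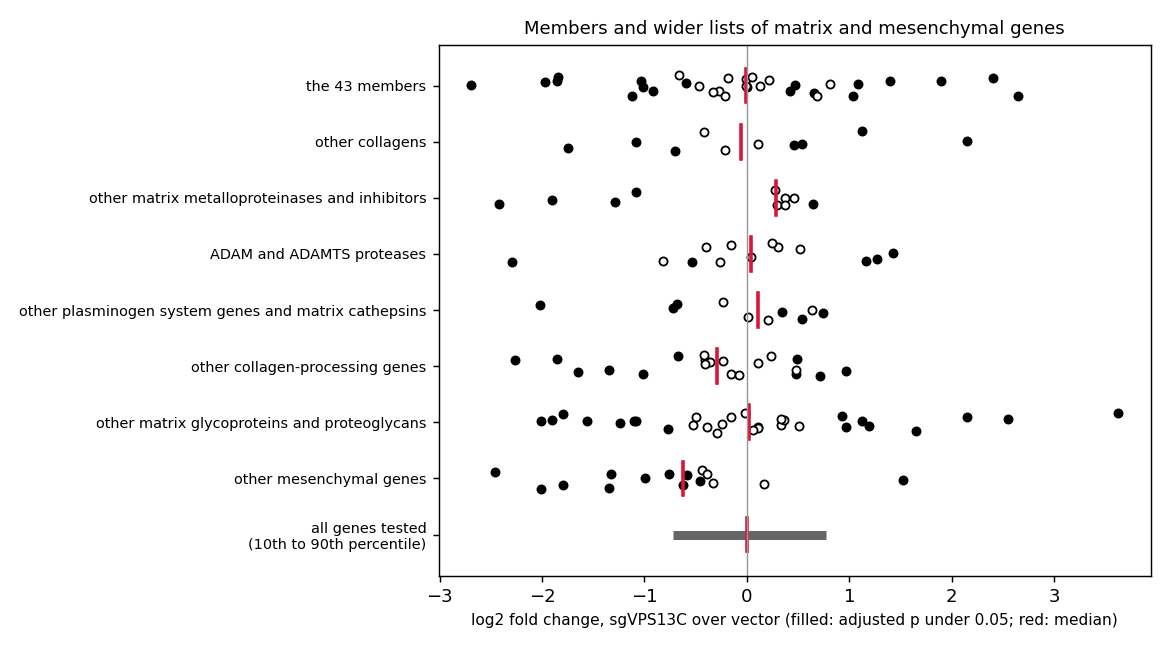
Log2 fold change of sgVPS13C over vector libraries for tested genes of the 43 members and of 7 wider lists, 1 circle per gene (filled where the adjusted p was under 0.05), with the median of each list as a red line. The grey bar spans the 10th to the 90th percentile of all genes tested, −0.72 to 0.78, and the list of other mesenchymal genes has its median at −0.62.

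Some members lay among genes that moved in the same direction. LOX, P4HA2 and TGFBI are all on chromosome 5, and the 40 tested genes nearest to each had median log2 fold changes of 0.30, 0.34 and 0.43, with 15, 14 and 19 of them called higher and 1, 0 and 0 lower. The members' own values exceeded these medians by 2.10 for LOX, 0.70 for P4HA2 and 1.47 for TGFBI. The stretch that holds the neighbours of P4HA2 overlaps those of LOX and TGFBI, so the same genes can count more than once. MMP14, at 0.47, was within 0.04 of the median of its neighbours on chromosome 14, of which 17 were higher and 1 lower. TNC and MMP2 stood among lower genes, with neighbour medians of −0.37 and −0.39, and lay 1.61 and 0.64 below them. PLAU differed by 0.01 among neighbours with a median of −0.39, of which 0 were higher and 19 lower. TIMP1 had a log2 fold change of −0.22 among neighbours with a median of 0.51. COL5A1, PLAUR, AXL, CDH2, TIMP2 and COL7A1 had neighbour medians between −0.23 and 0.04. Whether position has a part in these differences was not tested.

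**Figure D5:**
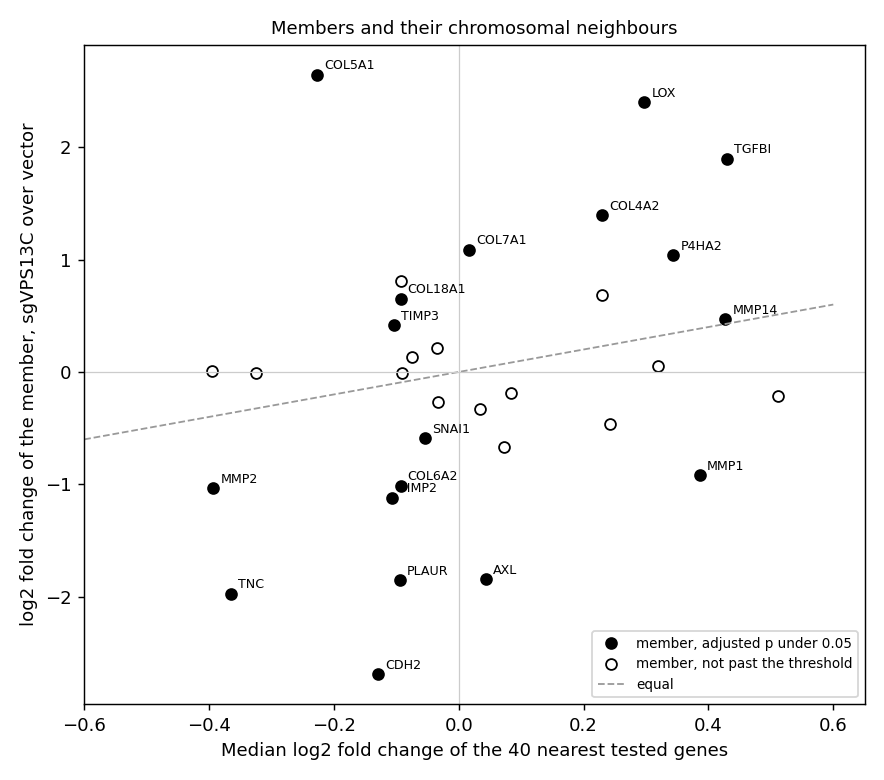
Log2 fold change of each tested member (vertical axis, sgVPS13C over vector) against the median of its 40 nearest tested genes (horizontal axis), filled where the adjusted p was under 0.05; the dashed line marks equal values. MMP14 lies near the line, while COL5A1, LOX and TGFBI lie above it and CDH2, TNC, PLAUR and AXL below it.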

How the data were processed

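RNA-seq of 6 ME180 libraries was compared, 3 sgVPS13C against 3 vector. Per the labels' protocols, 50-base single-end reads came from the DNBSEQ platform; the build was hg38 per the submitters' processing notes. Aligner, counting program and strandedness: not given in the sources used here, so reads of overlapping antisense genes cannot be told apart. Expected counts per gene and transcript, estimated by the authors, were rounded to whole numbers and tested. FPKM values as deposited by the authors served for levels between genes, and for alternatives. The authors also deposited TPM values and a normalised signal column, and neither entered a test. There were 0 unmapped per-sample columns.

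After filterByExpr (minimum count 10) and TMM scaling, genes were tested with the quasi-likelihood F-test of edgeR 4.0.16 (robust, prior count 2) in R 4.3.3, with Benjamini-Hochberg adjustment over 13717 genes and a threshold of 0.05. A gene could pass the filter through a single group, as CDH2, MMP1, CDH11, COL4A4, DCN and CDH5 did. Folds are those of the fit, and SE was taken as the absolute log2 fold change divided by the root of F. Alternatives used DESeq2 1.42.0 and limma 3.58.1. The pipeline was tested on simulated data. Floors (3 counts over a group) cover counting error only.

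Members and lists were chosen with earlier results of these data known. Values per library were due for called members with at least 2-fold change and 5 CPM in the higher group. They were also due for the member with the highest FPKM in each role. Added with values seen were those of other members, the neighbour medians, the motifs and the markers DCN, FAP, VWF and CD68. The named squamous markers and the lower collagens COL4A4, COL4A6 and COL8A2 were added in the same way. So were CDH11 and the untested genes of the mesenchymal list. Of each wider list, up to 4 called genes with 5 CPM or more were named by smallest p. Coordinates and promoters are RefSeq's for GRCh38.p14. Figures were drawn with matplotlib 3.10.9.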

Additional observations from a re-analysis of the deposited data

How the results depend on the processing

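In 17 alternatives, 15 of the 18 member calls held wherever the member was tested, and none of the 32 tested members changed sign while called; the calls of COL6A2, MMP1 and SNAI1 did not always hold. Calls among all genes were 4821 and ranged from 3026 to 5043 with 1 library left out (higher 1551 to 2552, lower 1475 to 2491). Members called higher numbered 9 to 10 and lower 6 to 9 with 1 library left out, and 46 to 62 wider-list genes were called (higher 19 to 24, lower 27 to 38). A filter of 10 CPM in 3 libraries, which removes low genes, left 4 members called lower and 34 wider-list genes, 16 of them lower. The log2 fold change of VPS13C passed the threshold with RLE scaling (−0.68), DESeq2 (−0.68), no low-count filter (−0.67) and the length trend removed (−0.82). With 1 library left out it ran from −0.84 to −0.46. VPS13C passed in 8 of the 17 alternatives. It missed with library size only, limma-voom, the filter of 10 CPM in 3 libraries and both fits on FPKM values. With the replicate number as a block, 7939 genes were called (4049 higher, 3890 lower), VPS13C at −0.67 among them. With the block and the length trend removed, 8014 were called (3857 higher, 4157 lower), VPS13C at −0.82 among them. The block called 24 members: the 18, and COL4A1, COL6A1, COL12A1, FN1, FBLN1 and TIMP1. Deviations of same-numbered libraries correlated at 0.651, 0.681 and −0.215, so the numbers were not taken as pairs, and sgVPS13C replicate 3 correlated best with vector replicate 1 (0.394). Log2(FPKM + 1) values understate changes of low genes, giving −0.87 for CDH2, 1.19 for COL5A1 and −1.01 for TNC. For members with few counts, depth limits what could be detected.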
